A study of Sus scrofa with 40 samples.

Results

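Liver gene expression was compared between pigs with low and high residual feed intake (RFI) while both were held on restricted feed. RFI compares the feed a pig eats with the amount its gain and upkeep call for, and a low value marks an efficient animal. The members were chosen by their titles: 5 arrays of low RFI liver and 5 of high RFI liver under caloric restriction, 10 of the 40 arrays in the series, with every probe set that is not an array control. All of these pigs were prepubertal Yorkshire gilts, 6 months old, whose ration for 8 days was set to 80% of their maintenance need, and all were heterozygous for a variant of MC4R, a melanocortin receptor that restrains appetite. The study crossed the lines with feeding, so 5 low and 5 high RFI gilts that ate freely gave 10 further liver arrays, on which the same line difference was measured; the label of low RFI ad libitum replicate 2 does not spell out its genotype in the same way. Backfat of the same design supplied the other 20 arrays. The labels number the arrays 1 to 5 within a group but do not name the pigs, so the p-values measure the spread between these samples.

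When feed falls below maintenance, the liver turns from making and storing fat and glycogen to releasing glucose and oxidising fatty acids, under the control of insulin, glucagon and glucocorticoids. It also makes most plasma proteins, breaks down amino acids into urea, and secretes peptides that act on appetite and growth. Paraoxonases are lactonases that protect lipids from oxidation, and PON3 among them is made mainly in the liver and travels on high-density lipoprotein. How lines selected for feed efficiency differ in this organ under an energy deficit is the question the comparison addresses.

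The samples carried a liver signature. Of 26 hepatocyte markers fixed for the check, 21 were measured, and their mean log2 signal lay between 14.40 and 14.99 on the low RFI arrays and between 14.62 and 14.89 on the high RFI arrays. Of 13 skeletal muscle markers on the array 1 passed the filter on low signal, as did 1 of 4 markers of pancreas and kidney. The actin control probe sets, whose 3′ over 5′ signal is a sign of RNA integrity and labelling, had a log2 ratio between 1.11 and 2.47 in the low line and between 1.19 and 2.37 in the high line (difference -0.17, two-sided exact permutation p = 0.579). It differed by array number, at 1.93 to 2.47 on the 4 restricted arrays numbered 1 and 2 against 1.11 to 1.71 on the 6 numbered 3 to 5. Whether these numbers mark a batch is not stated, so values within each set of numbers stand beside the pooled ones for the main genes. The log2 array median was 0.08 lower in the low line (exact permutation p = 0.0476, 0.143 after adjustment over 3 such tests).

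Few genes separated the lines in restricted liver. Of 15677 probe sets tested, 3 (0.0191%) passed an adjusted p of 0.05 in limma. A probe set each of PON3, a paraoxonase, and of HGSNAT, a lysosomal acetyltransferase, was lower in low RFI pigs (0.0128% of those tested). A probe set with no gene name was higher (0.00638%). At an unadjusted p under 0.05 the count was 750 (4.78%), of which 286 were higher and 464 lower in the low line. Under quantile normalization that split was 396 higher and 369 lower, and the median difference over all probe sets moved from -0.0227 to 0.0031 on the log2 scale. The 5 low RFI values lay wholly above or wholly below the 5 high RFI values for 115 probe sets (0.734%), 32 above and 83 below. The number that passed fell to 0 without replicate 1 of the high line or replicate 5 of the low line, and to 1 without low RFI replicate 1 or 2 or high RFI replicate 3, where PON3 alone passed.

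PON3 encodes paraoxonase 3, a lactonase of high-density lipoprotein. Its liver intensity in restricted low RFI pigs was 861, 752, 683, 743 and 352 in array order. In restricted high RFI pigs it was 15730, 11280, 4606, 5155 and 4235. The groups did not overlap: the highest low RFI value lay far below the lowest high RFI value, and within the high line replicates 1 and 2 stood above the rest. On the log2 scale the mean was 9.34 ± 0.51 (SD, n = 5) in the low line and 12.79 ± 0.85 in the high line. The limma difference was -3.45 (SE 0.502), a 10.9-fold lower level with an adjusted p of 0.0126. It was -4.05 among the 4 arrays numbered 1 and 2 (adjusted p = 4.73e-05 in limma) and -3.05 among the 6 numbered 3 to 5 (0.604). These sets are small, so their p-values do not show that the sets differ. The adjusted p in limma was 0.0704 without high RFI replicate 1 and 0.0501 without low RFI replicate 5.

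The same gene was measured in pigs that ate freely. There the low RFI intensities were 968, 1059, 1277, 10290 and 1288, and the high RFI intensities were 12110, 13100, 10630, 7399 and 5857. Low RFI replicates 1, 2, 3 and 5 were below every high RFI value, and replicate 4 of the low line lay within the high RFI range. The ad libitum difference was -2.41 (SE 0.502, adjusted p = 0.249 in limma). Without that replicate, singled out after its value was seen, it was -3.04. Leaving out the highest low RFI value could only widen the gap, so that fit is no further test. The difference between diets, -1.04 (SE 0.71), did not pass (adjusted p = 0.999 in limma). In restricted backfat the PON3 intensities were 2855, 4233, 3359, 3126 and 1253 in the low line against 6399, 7810, 4222, 5255 and 3771 in the high line. That difference was -0.94 (SE 0.294, adjusted p = 0.792 in limma), and these groups overlapped.

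The gene next to PON3 was measured at nearly equal levels in the lines. PON2, an intracellular paraoxonase that lies beside PON3 in the Sscrofa11.1 gene order, had a mean log2 signal of 12.66 in the low line and 12.46 in the high line, a difference of 0.20 (SE 0.135, adjusted p = 0.995 in limma), and PON1 was not analysed here. Of 13 measured paraoxonases and peroxidases PON3 alone passed the test, 10 had a negative difference, and the median was -0.10. In arrays numbered 1 and 2 it was 11 of 13 with a median of -0.29. In those numbered 3 to 5 only 4 of 13 were negative, with a median of 0.02. Among the peroxiredoxins PRDX6 had the smallest p after PON3, with a difference of -0.37 (SE 0.146, adjusted p = 0.995 in limma). Other measured neighbours of PON3 in that gene order, looked up after its values were seen, had differences of -0.48 (SE 0.351) for PEG10, -0.40 (SE 0.173) for PDK4 and 0.29 (SE 0.233) for DYNC1I1, none of which passed.

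HGSNAT encodes the acetyltransferase that the lysosome needs to break down heparan sulfate. Its leading probe set read 79.8, 64.8, 44.2, 125 and 86.6 in restricted low RFI liver. In restricted high RFI liver it read 901, 298, 1101, 300.5 and 324. No low RFI value reached the lowest high RFI value, and replicates 1 and 3 of the high line stood above the rest of their group. The low RFI mean, 6.24 ± 0.55 on the log2 scale (SD, n = 5), was close to the 40th percentile of the arrays (6.18 to 6.70), against 8.94 ± 0.94 in the high line. The difference was -2.70 (SE 0.464), a 6.5-fold lower level with an adjusted p of 0.0443 in limma. It was -2.85 in arrays numbered 1 and 2 and -2.60 in arrays numbered 3 to 5, with adjusted p of 0.222 and 0.654 in limma. The call did not hold without replicate 1, 2, 3 or 5 of the low line or replicate 1, 3 or 5 of the high line, where the adjusted p in limma ran from 0.0600 to 0.254. It was also lost under quantile normalization (adjusted p = 0.0713 in limma), with no filter (0.0601), without the intensity trend (0.110) and with the compared groups fitted alone (0.0679).

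A second HGSNAT probe set gave a smaller difference of -0.74 (SE 0.309, adjusted p = 0.995 in limma). The probe sets shared a sign but not a size, so the 6.5-fold level holds for the leading probe set only. In pigs that ate freely the first probe set read 178, 44.4, 206, 248 and 198 in the low line and 404, 234, 554, 161 and 214 in the high line, groups that overlapped. The ad libitum difference was -0.90 (SE 0.464, adjusted p = 0.962 in limma), and the difference between diets was -1.80 (SE 0.657, adjusted p = 0.999). In restricted backfat, on other arrays, it was -2.44 (SE 0.564, adjusted p = 0.502 in limma), with intensities of 79.8, 53.1, 60.2, 83.1 and 215 in the low line and 217, 981, 1164, 337 and 253 in the high line. All low RFI backfat values lay below all high RFI backfat values, by a narrow margin, and the probe set did not pass there. The 4 measured HGSNAT neighbours in the Sscrofa11.1 order, THAP1, RNF170, FNTA and INTS10, had differences between -0.01 and 0.44, and none passed.

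The unnamed probe set that passed read 514, 527, 757, 361 and 521 in restricted low RFI liver. It read 79.5, 134, 86.1, 59.3 and 273 in restricted high RFI liver. Every low RFI value was above every high RFI value, and replicate 5 of the high line came nearest. The difference was 2.27 (SE 0.347), a 4.82-fold higher level with an adjusted p of 0.0131 in limma. It was 2.34 within arrays numbered 1 and 2 and 2.22 within arrays numbered 3 to 5, with adjusted p of 0.0795 and 0.971 in limma. The call did not hold without replicate 1, 2 or 5 of the low line or replicate 1 or 3 of the high line, where the adjusted p in limma lay between 0.0501 and 0.0748, nor with the compared groups fitted alone (0.0734). In pigs that ate freely the probe set read 361, 281, 466, 245 and 175 in the low line and 118, 114, 196, 143 and 69.9 in the high line, groups that overlapped at replicate 5 of the low line and replicate 3 of the high line. That difference was 1.25 (SE 0.347, adjusted p = 0.788 in limma), and in restricted backfat it was -0.23 (SE 0.215). The annotation gives no gene for this probe set.

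**Figure D1:**
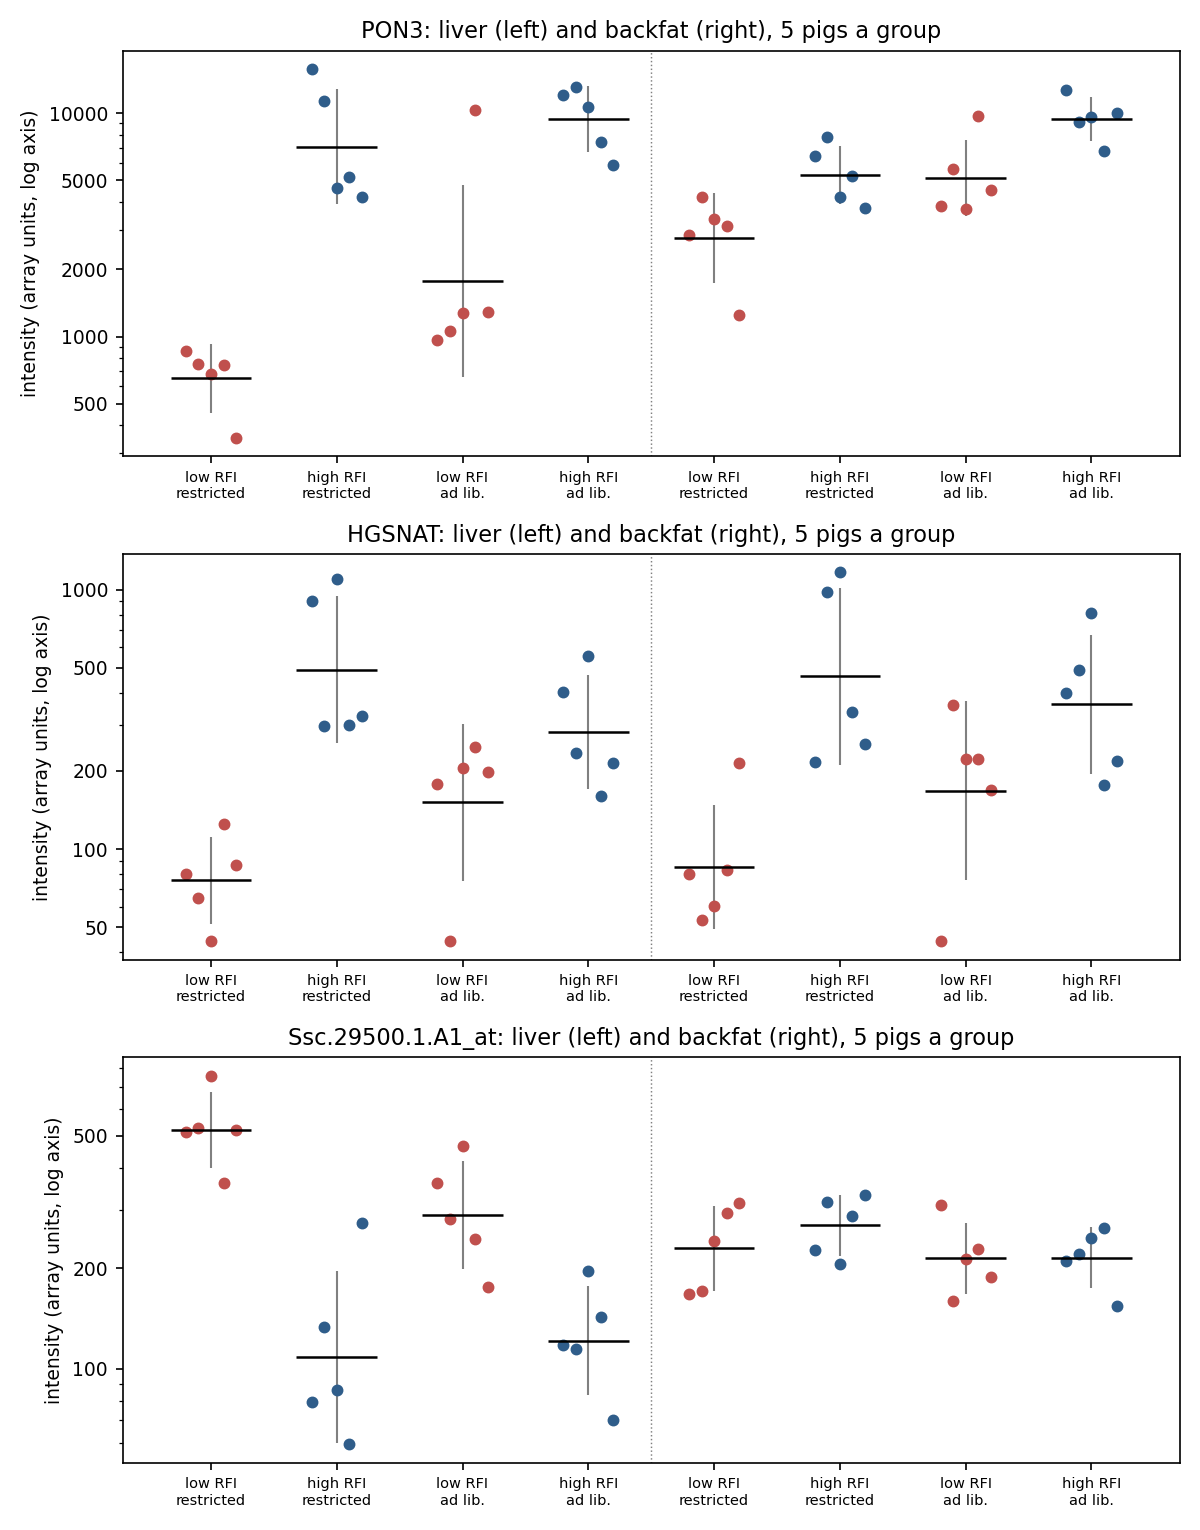
Intensity (array units, log axis) of PON3, HGSNAT and the unnamed probe set that passed on each array of liver (left) and backfat (right). Points are arrays in order of replicate number, black lines are group means of the log2 values and grey bars are 1 SD. Low RFI points (red) sit apart from high RFI points (blue) in restricted liver for all 3 probe sets, and the low RFI ad libitum point at 10290 stands alone for PON3.

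The probe sets just outside the threshold were another with no gene name, with a difference of 1.95, and GABARAPL1, with -0.69, both at an adjusted p of 0.0849 in limma. GABARAPL1 belongs to the ATG8 family that builds autophagosomes. Its intensity was 2543, 2772, 2386, 2616 and 2363 in restricted low RFI liver and 4579, 4494, 3483, 3540 and 4551 in restricted high RFI liver. The lines did not overlap, and the low RFI values were tightly grouped (log2 SD 0.0956 against 0.204). In pigs that ate freely the low RFI values, 3623, 3588, 3581, 2705 and 4385, overlapped those of the high line, 3938, 3676, 5280, 3761 and 4221, and the difference was -0.23 (SE 0.131). Of 17 measured autophagy and ubiquitin ligase genes 10 had a negative difference, none passed, and the median was -0.0018.

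The naming rule filled 12 places in each direction by the smallest p, and apart from PON3 and HGSNAT none of these genes passed. Those with a lower mean in low RFI pigs were GABARAPL1, GPNMB, GSN, ACP5, CCDC28A, CDKN2D, EPCAM, AQP1, EXT1 and MKNK1, with differences from -1.19 to -0.49. EXT1 is a polymerase that builds heparan sulfate chains. Its intensity was 898, 1371, 1371, 1359 and 1274 in the low line and 1575, 1567, 1777, 1820 and 2033 in the high line, without overlap, and its difference was -0.49 (SE 0.145, adjusted p = 0.850 in limma). A second EXT1 probe set gave -0.48 (SE 0.216). EPCAM, an adhesion protein of bile duct and liver progenitor cells, read 386, 256, 322, 181 and 255 against 460, 511, 453, 451 and 391, again without overlap, with a difference of -0.74 (SE 0.194, adjusted p = 0.578 in limma). The other 5 measured cholangiocyte markers (KRT18, KRT8, ANXA4, SPP1 and CLDN4) had differences from -0.13 to 0.31. CDKN2D, an inhibitor of cyclin-dependent kinases, had a difference of -1.11 (SE 0.293) at low signal, with a mean log2 value of 5.57 in the low line. GSN, the actin-severing gelsolin, had a difference of -1.19 (SE 0.266) on a dim probe set, while its brighter probe set gave 0.16 (SE 0.194), so the gene has no single direction here.

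The 12 genes with a higher mean in low RFI pigs were NME1, ENTPD4, CXHXorf38, DFFA, YIPF1, MRPL36, EGR1, LEAP2, SLC7A9, SEPT7, TBK1 and DDX50, with differences from 0.40 to 2.10, and none passed. LEAP2 encodes a peptide made in the liver that blocks the ghrelin receptor, and its circulating level is known to fall with fasting. Its intensity was 2323, 2174, 2762, 1040 and 2060 in restricted low RFI liver and 792, 1012, 1352, 1023 and 1119 in restricted high RFI liver. Low RFI replicates 1, 2, 3 and 5 were above every high RFI value, and replicate 4 lay among the high RFI values. The difference was 0.92 (SE 0.258, adjusted p = 0.726 in limma), and a second, brighter LEAP2 probe set gave 0.69 (SE 0.213). Under ad libitum feeding the differences of the same probe sets were 0.30 (SE 0.258) and 0.40.

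NME1, a nucleoside diphosphate kinase, had the smallest p among the genes with a higher mean. It read 866, 1139, 1034, 842 and 1820 in the low line and 716, 696, 467, 559 and 622 in the high line, with a difference of 0.85 (SE 0.173, adjusted p = 0.145 in limma). The groups did not overlap, and in pigs that ate freely the difference was 0.19 (SE 0.173). EGR1, an immediate early transcription factor, had the widest gap of the 12 at 2.10 (SE 0.581) on a dim probe set. Its brighter probe sets gave -0.55 (SE 0.547) and 0.66 (SE 0.444), so the probe sets disagreed in direction. SEPT7, a septin of the cytoskeleton, likewise had 1.67 (SE 0.488) on its leading probe set and values from -0.24 to -0.10 on its other 3. DFFA, which holds the caspase-activated nuclease in check, had 0.64 (SE 0.160) on its leading probe set and 0.13 and 0.22 on the others. ENTPD4, a nucleotidase of the Golgi and lysosome, had 0.86 (SE 0.205) under restriction and -0.28 (SE 0.205) under ad libitum feeding.

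**Figure D2:**
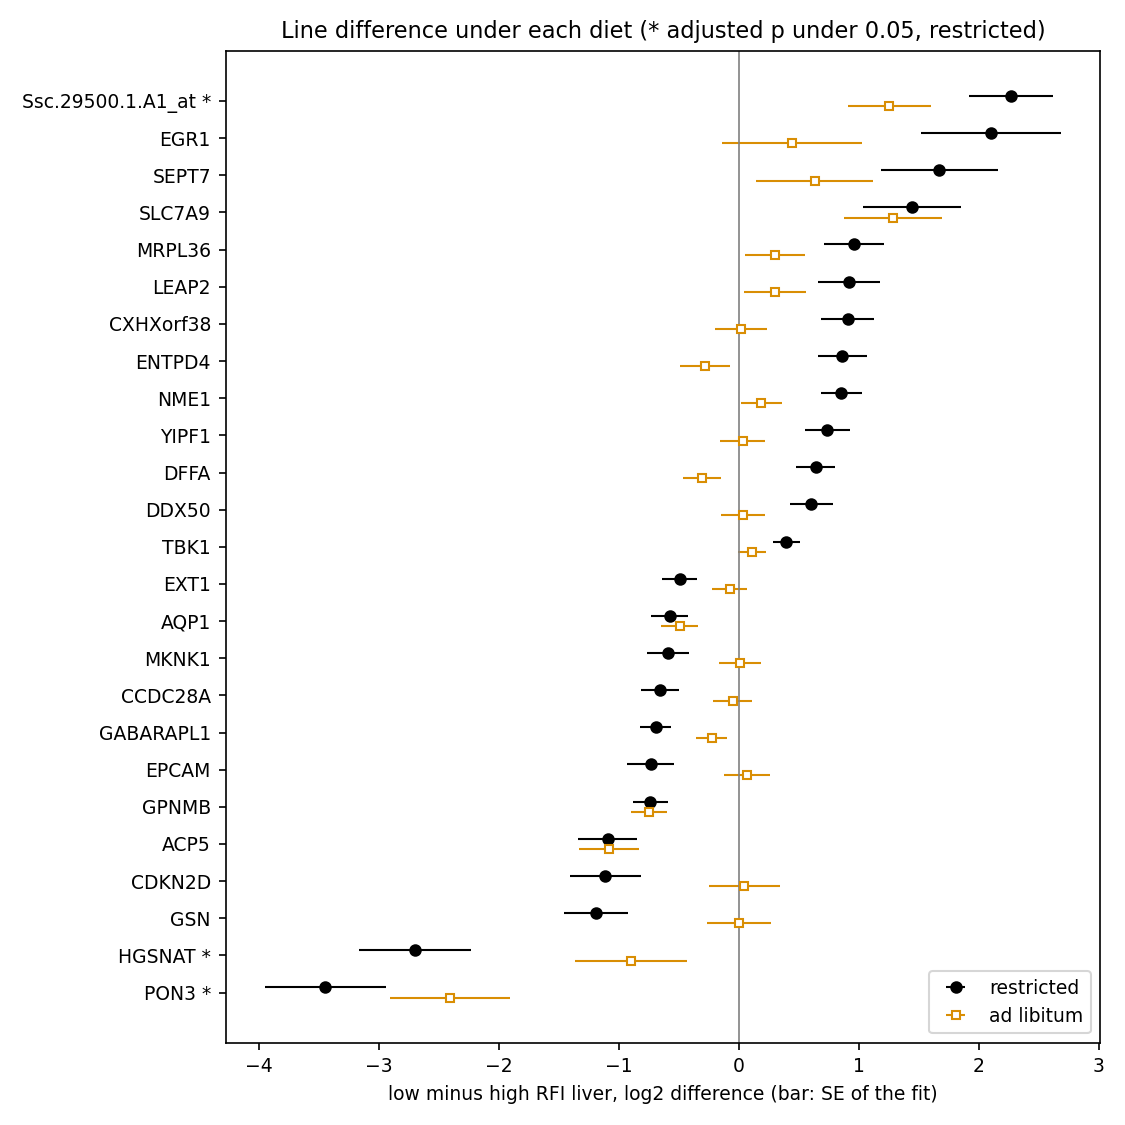
Log2 difference between low and high RFI liver for the 24 named genes and the unnamed probe set that passed, under restriction (filled circles) and ad libitum feeding (open squares), with the SE of the limma fit; an asterisk marks an adjusted p under 0.05 under restriction. ENTPD4, DFFA, CDKN2D, EPCAM and MKNK1 have differences of opposite sign under the diets, the others share a sign, and GSN goes from -1.19 under restriction to -0.0026 under free feeding.

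The line difference under restriction was set beside that in pigs that ate freely, whose group means rest on other arrays. Both differences came from the same fit of all liver arrays, so the diets share the estimate of spread for each probe set. With free feeding 0 of 15677 probe sets passed (0.0%; smallest adjusted p 0.198 in limma), and 786 had an unadjusted p under 0.05 (5.01%). For the difference between diets 0 passed (0.0%; smallest adjusted p 0.999 in limma) and 525 had an unadjusted p under 0.05 (3.35%). No gene was therefore shown to differ between the lines more under one diet than under the other. Of the probe sets at an unadjusted p under 0.05, 74 were shared. That is 9.87% of those under restriction and 9.42% of those under free feeding. Of the 74, 60 had the same sign. Because the diets share the estimate of spread, these counts are not an overlap of independent tests. Across all probe sets tested the Pearson correlation of both differences was 0.15, given as a description because probe sets share arrays and are not independent. In restricted backfat 0 of 15498 probe sets passed (0.0%; smallest adjusted p 0.248 in limma) and 747 had an unadjusted p under 0.05 (4.82%).

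**Figure D3:**
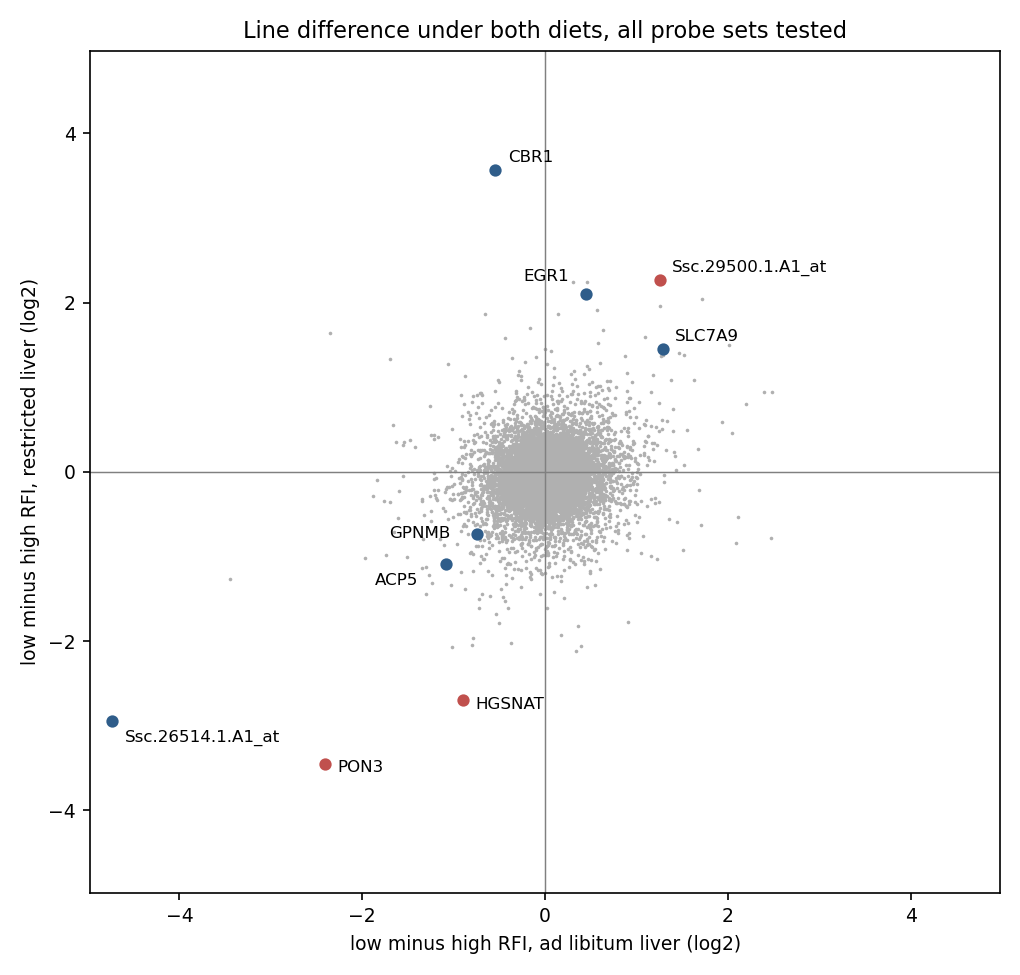
Each point is a probe set tested in liver, with the log2 difference between low and high RFI pigs under ad libitum feeding (x axis) and under restriction (y axis). PON3, HGSNAT and the unnamed probe set (red) passed the test under restriction. CBR1 and the other blue points did not.

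The lines were apart under each diet, in the same direction, for 5 probe sets. Ad libitum feeding alone gave 184 probe sets without overlap (1.17%), and the 5 shared ones were 0.0319% of those tested. GPNMB, ACP5, PLEKHJ1 and DNPEP were lower in every low RFI pig and SLC7A9 was higher, and these 5 genes were singled out after their values were seen. None passed under either diet when all liver arrays were fitted with 1 mean per group. GPNMB is a membrane glycoprotein of lysosome-rich macrophages. It read 732, 905, 1034, 1014 and 1161 in restricted low RFI liver and 1791, 1374, 1832, 1304 and 1770 in restricted high RFI liver. In pigs that ate freely it read 723, 579, 718, 682 and 832 against 1342, 1026, 1420, 1050 and 1116. The difference was -0.74 (SE 0.147, adjusted p = 0.145 in limma) under restriction and -0.75 (SE 0.147, adjusted p = 0.198) under free feeding. The other tested GPNMB probe sets gave -0.75 (SE 0.171) and -0.80 (SE 0.374) under restriction.

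ACP5 encodes tartrate-resistant acid phosphatase, an enzyme of osteoclasts and macrophages. Its intensity was 388, 380, 762, 881 and 560 in restricted low RFI liver against 1126, 952, 1598, 1282 and 1121 in restricted high RFI liver. Under free feeding it was 437, 246, 565, 522 and 528 against 820, 725, 959, 948 and 1332. The differences were -1.10 (SE 0.249, adjusted p = 0.343 in limma) and -1.08 (SE 0.249, adjusted p = 0.430). Within restricted arrays numbered 1 and 2 the ACP5 difference was -1.43 and within those numbered 3 to 5 it was -0.87, while GPNMB gave -0.95 and -0.60. With the set of numbers as a covariate ACP5 passed under restriction (adjusted p = 0.00981 in limma) and under free feeding (0.0425). GPNMB had 0.0673 under restriction in that fit. Under restriction ACP5 passed in 2 and GPNMB in 1 of 20 alternative settings. Both genes were picked after their values were seen, so these fits are no independent support. Of 13 measured macrophage and Kupffer cell markers none passed under restriction and 10 had a negative difference, with a median of -0.04. The mean log2 level of that list ran from 10.35 to 11.02 in the low line and from 10.53 to 11.10 in the high line. Its members CD163, C1QA, C1QC, CD5L and VSIG4 had differences from -0.17 to -0.01, and GP91-PHOX had -0.33 (SE 0.219). The positive ones were CD14 at 0.38 (SE 0.168), FCER1G at 0.34 (SE 0.310) and MRC1 at 0.05 (SE 0.128). MARCO had -1.05 (SE 0.598) at low signal, with mean log2 values of 4.85 in the low line and 5.90 in the high line. With free feeding the differences were -0.28 for CD163, -0.44 for C1QA, -0.35 for C1QC, 0.0038 for CD5L, -0.19 for VSIG4 and -0.40 for GP91-PHOX. For CD14, FCER1G, MRC1 and MARCO they were -0.03, -0.007, 0.12 and -0.21. The part of these markers in the GPNMB and ACP5 values was not tested. In bulk tissue, fewer cells of a type and less RNA per cell cannot be told apart.

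SLC7A9, the light subunit of a cystine and dibasic amino acid transporter, read 212, 266, 141, 354 and 409 in restricted low RFI liver. The restricted high RFI values were 130, 123, 139, 26.6 and 130. The lines were separated by a narrow margin, and replicate 4 of the high line lay far below its group. The difference was 1.44 (SE 0.409, adjusted p = 0.726 in limma), and 1.29 (SE 0.409, adjusted p = 0.837) under free feeding. PLEKHJ1 had -0.34 (SE 0.103) under restriction and -0.43 (SE 0.103) under free feeding, and DNPEP, an aspartyl aminopeptidase, had -0.45 and -0.39 (SE 0.137 for each). AQP1, a water channel of endothelium and bile ducts, read 805, 722, 783, 894 and 847 in restricted low RFI liver and 1296, 1097, 1207, 1290 and 1145 in restricted high RFI liver, with a difference of -0.58 (SE 0.153, adjusted p = 0.593 in limma). Under free feeding 1 high RFI value, 719.5, fell among the low RFI values, and the difference was -0.49 (SE 0.153). The 10 measured endothelial markers had a median difference of -0.11, 6 of them negative and none past the threshold.

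**Figure D4:**
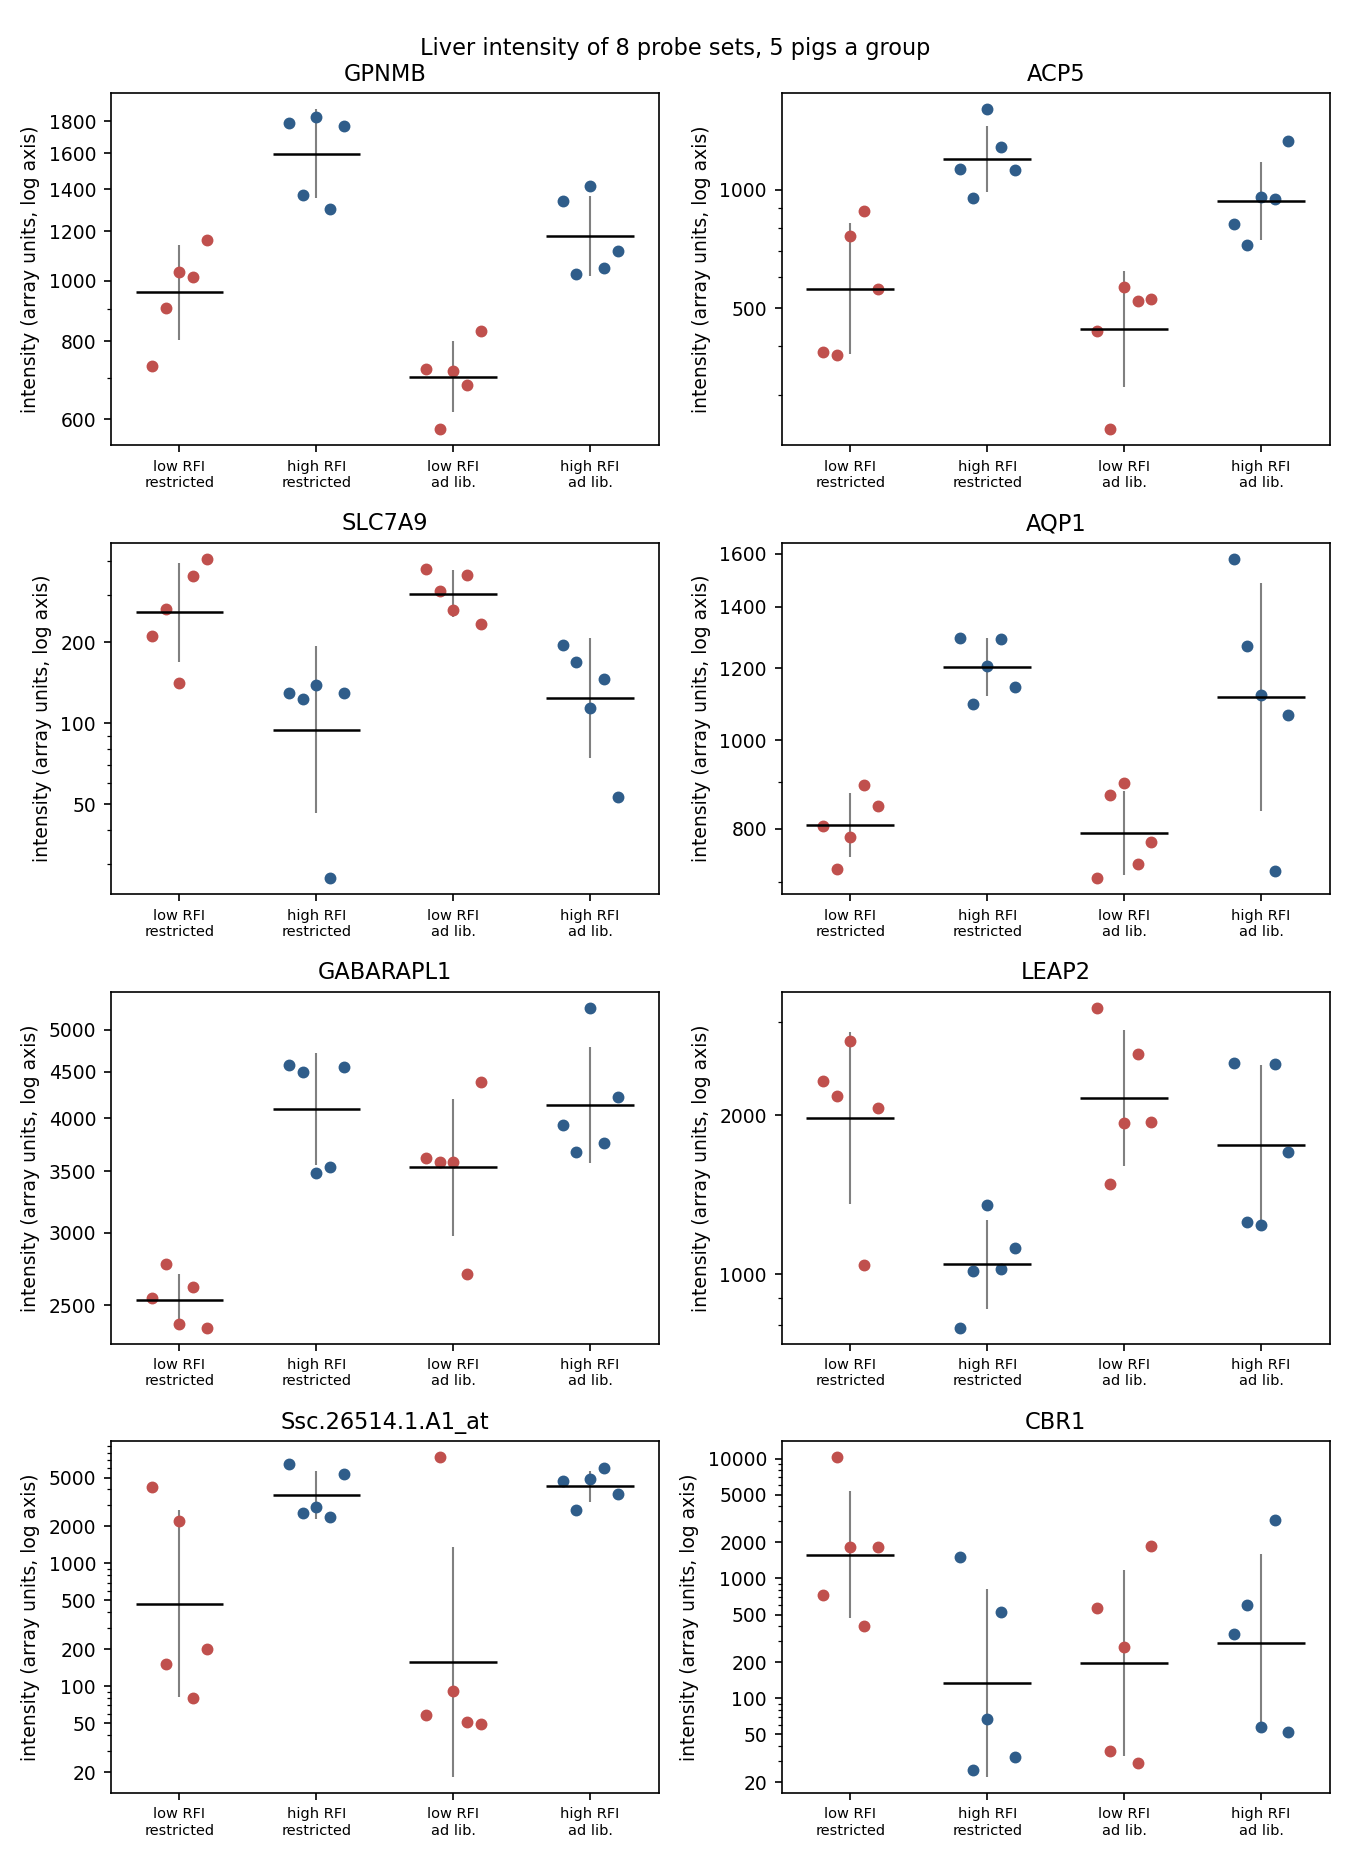
Liver intensity (array units, log axis) of 8 probe sets in the 4 liver groups, points being arrays in order of replicate number, black lines the group means of the log2 values and grey bars 1 SD. GPNMB and ACP5 keep the lines apart under each diet, GABARAPL1 keeps them apart under restriction only, and the probe set with no gene name falls into a low and a high set of values within the low RFI groups.

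Several large gaps between the line means rested on part of the pigs. Of 14 probe sets with means over 4-fold apart, the 3 described above passed, and the rest were looked at after their values were seen. A probe set among these that has no gene name read 4188, 152, 2214, 80.1 and 203 in restricted low RFI liver and 6480, 2573, 2899, 2382 and 5333 in restricted high RFI liver. In pigs that ate freely it read 58.6, 7322, 91.6, 51.5 and 49.7 in the low line and 4671, 2739, 4860, 5970 and 3665 in the high line. All 10 high RFI livers were thus at 2382 or above, while 7 of 10 low RFI livers were at 203 or below, and the other low RFI livers read 2214, 4188 and 7322. The difference was -2.94 (SE 1.12, adjusted p = 0.988 in limma) under restriction and -4.74 (SE 1.12, adjusted p = 0.448) under free feeding. Without low RFI replicate 2, the highest value of that group, the free feeding difference was -6.12, a gap that this omission could only widen. In backfat the same probe set stayed at or below 65.9 on all arrays.

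CBR1, a carbonyl reductase, had the widest gap of all, 3.56 (SE 1.31), but an adjusted p of 0.982 in limma. Its intensity was 722, 10280, 1821, 404 and 1820 in the low line and 1518, 25.3, 67.5, 520 and 32.2 in the high line, so the lines overlapped, and under free feeding the difference was -0.55 (SE 1.31). SLA-3, a classical class I histocompatibility gene, read 2428, 5804, 5754, 202 and 274 in the low line and 4529, 5362, 9217, 7679 and 2891 in the high line. Replicates 4 and 5 of the low line set its difference of -2.02 (SE 0.691, adjusted p = 0.934 in limma). The 12 measured class I and immunoproteasome genes had a median of -0.0030, 6 in each direction, and class I genes are so alike in sequence that probe sets can share signal. CA3, a carbonic anhydrase, read 2229, 692, 1313, 2786 and 74.6 in the low line and 7455, 4643, 3680, 5489 and 789 in the high line, with a difference of -2.07 (SE 0.803), and its other probe set gave -2.05 (SE 0.784). Neither passed (adjusted p = 0.990 and 0.988 in limma). TSKU, a protein that the liver secretes, had a difference of 2.24 (SE 0.917, adjusted p = 0.995 in limma), with high RFI intensities spread from 11.8 to 1820.

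Genes at the centre of the response to energy deficit showed no line difference that passed. They were part of a list of 30 liver genes, chosen with earlier results known, that also held paraoxonases. Of the 30, 22 had a probe set with their symbol and 21 passed the filter. PON3, described above, was the single call. Among genes of fatty acid synthesis the cytosolic malic enzyme ME1, which supplies reducing power, had -0.95 (SE 0.303, adjusted p = 0.888 in limma). Fatty acid synthase FASN had -0.09 (SE 0.395), the desaturase SCD -0.09 (SE 0.473), the elongase ELOVL6 0.70 (SE 0.425) and the regulator SREBF1 -0.07 (SE 0.279). ACACA, acetyl-CoA carboxylase, was dim, with mean log2 values of 4.05 and 3.92, and its difference of 0.13 had an SE of 0.847.

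On the oxidative and gluconeogenic side, PDK4, the kinase that shuts pyruvate out of oxidation during fasting, had -0.40 (SE 0.173, adjusted p = 0.995 in limma). The carnitine palmitoyltransferase CPT1A had 0.05 (SE 0.291), the acyl-CoA dehydrogenase ACADM 0.06 (SE 0.117), and the coactivator PPARGC1A -0.39 (SE 0.264). Phosphoenolpyruvate carboxykinase PCK1 had -0.19 (SE 0.426), pyruvate carboxylase PC 0.12 (SE 0.291) and the phosphatidate phosphatase LPIN1 -0.45 (SE 0.409). In the growth hormone and insulin axis IGF1 had 0.31 (SE 0.275), its binding proteins IGFBP1 and IGFBP2 -0.08 (SE 0.751) and -0.30 (SE 0.390), the growth hormone receptor GHR -0.04 (SE 0.247) and the insulin receptor INSR -0.59 (SE 0.443). CYP7A1, the rate-limiting enzyme of bile acid synthesis, had -0.70 (SE 0.639). None of these genes passed in limma, and for FASN, SCD, CPT1A, PCK1, IGFBP1, CYP7A1 and several others the sign differed between arrays numbered 1 and 2 and arrays numbered 3 to 5.

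Gene lists were described by counts and medians, each gene being represented by its brightest probe set. Over all 5723 named genes tested, 244 (4.26%) had an unadjusted p under 0.05, 111 higher and 133 lower, and the median difference was -0.01. Members of a list share the same arrays, so a count of signs is not a count of independent results. The list of endoplasmic reticulum chaperones and unfolded protein response genes had the highest median of the lists with 5 or more measured genes. Of its 26 measured members 24 had a positive difference, with a median of 0.20, and none passed. The translocon-associated subunit SSR3 had the smallest p, at 0.32 (SE 0.128, adjusted p = 0.995 in limma). XBP1, a transcription factor of the unfolded protein response, had 0.19 (SE 0.141), the chaperone HSPA5 0.12 (SE 0.169) and the disulfide isomerase PDIA6 0.20 (SE 0.139). CALR, a calcium-binding chaperone, went the other way at -1.02 (SE 0.552). The list median was 0.16 in arrays numbered 1 and 2, 0.20 in arrays numbered 3 to 5 and 0.20 under quantile normalization. Leaving out an array gave 0.0661 to 0.27, the lowest without low RFI replicate 5, and in pigs that ate freely the median was -0.03.

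Genes of amino acid catabolism and the urea cycle lay on the other side. Of 30 measured, 23 had a negative difference, the median was -0.18, 5 had an unadjusted p under 0.05 (all lower in the low line), and none passed. These were arginase ARG1 at -0.58 (SE 0.20, adjusted p = 0.934 in limma), the proline pathway enzyme ALDH4A1 at -0.65 (SE 0.238), the kynurenine monooxygenase KMO at -0.59 (SE 0.233), the serine hydroxymethyltransferase SHMT1 at -0.27 (SE 0.108) and argininosuccinate lyase ASL at -0.49 (SE 0.219). SHMT1 did not overlap between the lines. The list median was -0.32 in arrays numbered 1 and 2 but -0.02 in arrays numbered 3 to 5, and under free feeding it was -0.11. Leaving out an array gave -0.25 to -0.0548, the latter without low RFI replicate 2. Within free feeding KMO and SHMT1 had -0.69 and -0.29.

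Glucocorticoid-responsive genes had 15 of 21 negative differences, a median of -0.14 and no call. The stress-induced GADD45B had -0.77 (SE 0.250, adjusted p = 0.888 in limma), the transcription factor CEBPB -0.69 (SE 0.256) and TSC22D3, a glucocorticoid-induced leucine zipper protein, -0.37 (SE 0.182). Their median was -0.15 in arrays numbered 1 and 2, -0.11 in those numbered 3 to 5, and -0.05 under free feeding, and leaving out an array gave -0.23 (without high RFI replicate 3) to -0.0433 (without low RFI replicate 3). The receptor itself, NR3C1, had 0.09 (SE 0.160). Among other members FKBP5 had -0.14 (SE 0.329), DUSP1 -0.18 (SE 0.179), PER1 0.02 (SE 0.179) and SGK1 0.30 (SE 0.2625). Under free feeding TSC22D3 had 0.28 and FKBP5 1.01, while GADD45B and CEBPB had -0.04 and -0.05. Class II histocompatibility and antigen presentation genes had 13 of 15 negative differences with a median of -0.19, and -0.20 under free feeding. In arrays numbered 1 and 2 it was 9 of 15 with a median of -0.0479, and in those numbered 3 to 5 it was 12 of 15 with -0.28. Leaving out an array gave -0.40 (without low RFI replicate 2) to -0.11 (without low RFI replicate 3). None of them passed, and SLA-DRB1, at 0.52 (SE 0.268), had the smallest p.

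Hepatocyte markers themselves had 21 of 21 negative differences, with a median of -0.11 and no call; FABP1, a liver fatty acid binding protein, had the smallest p at -0.24 (SE 0.149). Under quantile normalization 16 of 21 were negative with a median of -0.03. In arrays numbered 1 and 2 the median was -0.37, and in those numbered 3 to 5 it was 0.08. Lists made up of abundant liver transcripts had medians of similar size: -0.13 for cytochrome P450, UGT and sulfotransferase genes (21 of 26 negative), -0.10 for apolipoproteins and lipoprotein handling (14 of 17 negative), -0.09 for complement (19 of 25 negative) and -0.08 for acute phase proteins (18 of 21 negative). In arrays numbered 3 to 5 complement was positive in 15 of 25 (median 0.05) and acute phase proteins in 17 of 21 (0.08), and the other lists had medians of -0.03 and -0.02. Under quantile normalization 7 of 21 acute phase genes were positive. CPS1, TAT and HPD stand both in the marker list and among the amino acid genes. The part that the hepatocyte marker level has in these medians, and in that of amino acid catabolism, was not tested.

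Genes of energy production and protein turnover had pooled medians near that of all genes. Oxidative phosphorylation had 37 of 58 positive differences and a median of 0.04, ribosomal proteins 30 of 57 and 0.0049, the proteasome 22 of 39 and 0.01, and fatty acid oxidation and ketogenesis 16 of 30 and 0.01. The sets of numbers differed: ribosomal proteins were positive in 14 of 57 (median -0.11) in arrays numbered 1 and 2 and in 45 of 57 (0.07) in those numbered 3 to 5, and in 39 of 57 under quantile normalization. Oxidative phosphorylation had medians of -0.0151 and 0.08 in the same sets. Interferon-stimulated genes had 14 of 19 positive differences, a median of 0.10 (-0.0154 without low RFI replicate 2), and -0.11 under free feeding. Lysosomal genes had a median of -0.02 over 28 measured members. No member of any of these lists passed. IGFBP6, a binding protein of insulin-like growth factors, had 0.91 (SE 0.290, adjusted p = 0.888 in limma). Its signal was low, with mean log2 values of 6.76 in the low line and 5.85 in the high line. The nuclear receptor RORA of the clock list had 0.72 (SE 0.238, adjusted p = 0.907 in limma). The T, NK and B cell list had a mean log2 level from 7.03 to 8.11 in the low line and 7.54 to 7.86 in the high line. Its CD4 difference of -1.60 (SE 0.715) did not pass and was at low signal, with mean log2 values of 4.65 and 6.26.

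**Figure D5:**
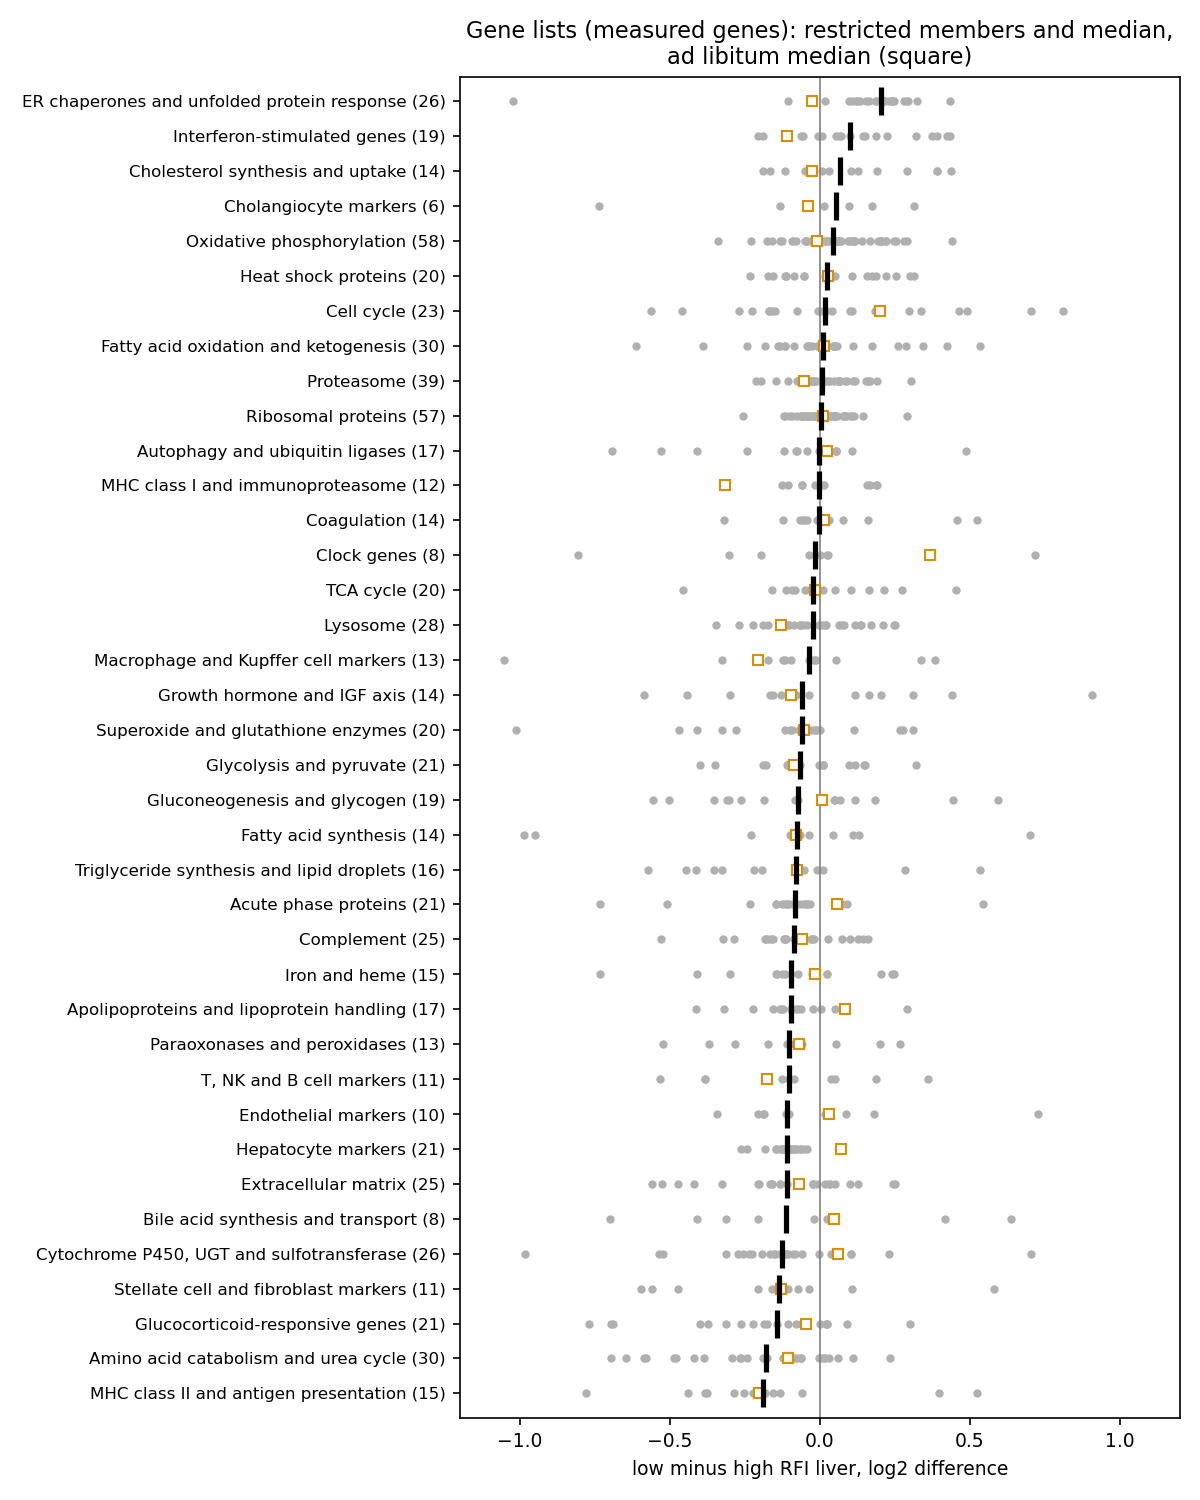
Line difference in restricted liver for the 38 gene lists with at least 5 measured genes, numbers in brackets being measured genes. Grey points are genes, black bars are list medians under restriction and open squares are list medians under ad libitum feeding (log2; 5 genes beyond 1.2 in either direction are not drawn). Endoplasmic reticulum chaperones have the highest median, 0.20, and class II genes the lowest, -0.19.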

How the data were processed

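RNA of 40 pig liver and backfat samples was hybridised to Affymetrix porcine arrays. The deposited table holds 1 intensity per probe set and array, on a linear scale; the submitters' processing notes name affy and MAS5 without roles or versions. In the values, the 2% trimmed mean of every array lay between 500.09 and 500.15. Of 24123 probe sets 124 controls were left out, and 10069 of the rest had a single gene symbol in the platform annotation, 198 several and 13732 none.

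Log2 intensities of the 20 liver arrays were fitted in limma 3.58.1 (R 4.3.3) with 1 mean per group, an intensity trend and Benjamini-Hochberg adjustment over all probe sets tested (threshold 0.05). A probe set was tested if it exceeded the 40th percentile of its array on at least 5 of 20 arrays. Backfat was fitted separately, so its levels are not set against those of liver. Lists use each gene's brightest tested probe set. Tables and exact permutation tests used Python 3.11.15 with scipy 1.17.1. The fit was tested on simulated data. The array number is the one in the titles. Probe sets without a gene name are described without their identifiers. Array precision is limited by 5 samples a group.

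The comparison, the gene lists and the 30 liver genes were chosen with earlier results of these data known. The text names genes past the threshold, then fills 12 per direction by smallest p, the smallest-p gene of a list and up to 3 called ones, the 30 liver genes, and up to 2 unnamed probe sets a direction; other genes are marked as chosen after their values were seen, and further list members serve as examples of their list. Alternatives were a filter at the 60th percentile or none, quantile normalization, an offset of 29.42 before taking logs, no trend, the compared groups alone, the replicate block, the number set as covariate or taken apart, and leaving out each array.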

Additional observations from a re-analysis of the deposited data

Results flagged for a closer look

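Of 106 group values looked at, 8 had an array far from the other 4, by a gap over 0.71 of the group's range; chance alone gives about 1 in 20 groups. All values are log2 intensities in liver. PON3 was 8.46 in restricted low RFI replicate 5, where the others lay from 9.42 to 9.75. It was 13.33 in ad libitum low RFI replicate 4, where the others lay from 9.92 to 10.33. HGSNAT was 5.47 in ad libitum low RFI replicate 2, with the others from 7.48 to 7.96. In restricted high RFI replicate 4, SLC7A9 was 4.73 against 6.94 to 7.12 and SEPT7 was 7.03 against 9.23 to 10.01. EXT1 was 9.81 in restricted low RFI replicate 1 against 10.31 to 10.42. In the ad libitum high RFI group CXHXorf38 was 7.40 in replicate 2 against 7.06 to 7.10, and CDKN2D was 5.84 in replicate 1 against 6.36 to 6.49.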

How the results depend on the processing

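The restricted comparison gave 3 calls, and 2 or 3 under quantile normalization, both other filters, the offset, no trend and the compared groups alone, where HGSNAT and the unnamed probe set were lost and another unnamed one (1.95, adjusted p = 0.0232 in limma) was called. It gave 5 with the number set as a covariate, 2 in arrays numbered 1 and 2, 1 in arrays numbered 3 to 5 (an unnamed probe set, 2.06, adjusted p = 0.00653 in limma), and 0 to 4 when an array was left out. With a replicate block it gave 6 calls, adding ACP5 (adjusted p = 0.0167 in limma), GPNMB (0.0489) and an unnamed probe set. Deviations of arrays numbered 1 to 5 correlated across the lines at 0.224, 0.177, -0.0043, 0.164 and 0.284; low RFI array 2 and both arrays numbered 3 correlated better with another number than with their own. Number 3 fell short of the 0.1 asked of every pair, so the block is given here only. The ad libitum count of 0 became 1 with the covariate, 1 in arrays 1 and 2, 2 in arrays 3 to 5, and 0 to 1 when an array was left out; the interaction count of 0 became 0 to 1 on leaving out arrays. The block left both counts at 0.

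The following signs turned. In arrays 3 to 5 the difference was 0.61 for FASN, 0.38 for SCD, -0.43 for CPT1A, 0.47 for PCK1, 0.87 for IGFBP1, 0.0025 for FABP1 and -0.11 for HBB. In arrays 1 and 2 it was -0.19 for ACACA, 0.0147 for SREBF1 (0.0322 under quantile normalization), 0.16 for LPIN1, -0.0577 for ACADM, -0.0651 for PC, 0.77 for CYP7A1, 0.21 for GHR, -0.054 for LIPC, -0.72 for NEB and -0.0423 for USP18. Leaving out arrays gave -0.35 to 0.15 for FASN, -0.29 to 0.34 for ACACA, -0.53 to 0.36 for SCD, -0.32 to 0.0495 for SREBF1, -0.18 to 0.36 for CPT1A, -0.78 to 0.0476 for PCK1, -0.0423 to 0.28 for PC, -0.77 to 0.19 for IGFBP1, -0.20 to 0.18 for GHR, -0.0059 to 0.15 for HBB and -0.25 to 0.33 for NEB. The cause was not tested.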
